A study of Mus musculus with 6 samples.

Results

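Cadherins and protocadherins are calcium-dependent adhesion proteins of the cell surface, and 71 genes of these families were represented on the array by 90 probes, among 21244 named genes. A gene was included when its name on the array was Cdh followed by a number, or began with Pcdh followed by a number or a cluster letter. The 71 genes comprised 24 cadherins, 12 non-clustered protocadherins and 35 clustered protocadherins. RNA came from the forelimb autopod, the hand plate in which the digits form, of mouse embryos at stage E11.5 (strain C57BL/6). All embryos, including the source of the negative cells, carried a Sox9EGFP knock-in, so that EGFP reports activity of the Sox9 locus. Flow cytometry separated the mesenchymal cells into those positive and those negative for Sox9-EGFP. Each group had 3 samples of about 10 pooled autopods, and each sample was hybridised to its own 1-colour array. The question was which adhesion genes differed between cells with and without the reporter of Sox9, the transcription factor that starts cartilage formation.

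Classical cadherins bind the same or a related cadherin on the neighbouring cell and are tied to actin inside the cell through beta-catenin and alpha-catenin. N-cadherin (Cdh2) is known for holding limb mesenchymal cells together as they condense into cartilage precursors. Delta protocadherins are weaker adhesion proteins whose cytoplasmic tails bind signalling and actin regulators. Clustered protocadherins are made from 3 neighbouring gene clusters, alpha, beta and gamma, are best known in neurons, and give single cells different combinations of surface proteins.

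Signals are given as log2 of the processed signal relative to the 75th percentile of the same array, so 0 is the level of that percentile and each unit is a factor of 2. Sox9 itself, which checks the labels, read 3.52, 2.99 and 3.60 on the positive arrays and -0.88, -1.0 and -1.13 on the negative arrays. The array of positive replicate 1 was dim, with a 75th percentile of 125.5 against 384.5 to 478.4 on the others and 24743 spots above background against 29800 to 35277. Its lowest signal well above background was therefore at -2.73, against -4.77 to -4.53 on the other arrays. The 20217 probes above background on no array had a median difference, positive minus negative, of 0.55. Each of the 3 slides carried 1 array of each group, and on slide 1, which held positive replicate 1, that median was 1.90, against 0.00 on slide 2 and -0.23 on slide 3. Differences of called and of several other members are therefore given within each slide as well. All 8 limb mesenchyme markers were measured. Of these, 4 were called lower (Msx1 by -4.56, Prrx2 by -1.93, Twist1 by -1.92 and Hoxd13 by -1.61). The 2 called higher were Tbx5 (1.02) and Pdgfra (0.79), and Prrx1 (-0.06) and Hoxa13 (-0.76) did not pass, so the list did not move one way. The summed signal of the 8, in which the brightest genes weigh most, was 119.0 to 127.1 times the 75th percentile on the positive arrays. On the negative arrays it was 268.6 to 274.6. Markers of other cells were present too. In such bulk samples fewer cells of a type and less RNA per cell cannot be told apart.

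Of the 71 genes, 29 were measured, meaning that a probe exceeded background clearly in every sample of one group or of both. They were 11 of 24 cadherins, 7 of 12 non-clustered protocadherins and 11 of 35 clustered protocadherins. All 29 passed the filter on the 3 negative arrays, and 24 were above background on all 6 arrays. Higher signal in the positive cells was called for 8 genes, namely Cdh22, Pcdh7 and 6 members of the beta cluster. Lower signal was called for 1 gene, Cdh15, and 20 genes did not pass (limma, Benjamini-Hochberg adjusted p below 0.05 over all 13196 genes tested). Over all genes tested, 35.0% were called, 10.6% higher and 24.4% lower. The groups did not overlap for 11 of the 29 members, against 51.3% of all genes tested. The median difference of the 29 was 0.44, against -0.18 over all genes, and 22 were above 0, against 36.3% of all genes. Scaling the arrays by quantiles or by the median moved the median of all genes to between -0.04 and -0.03, and values relative to the median gene are given for some members. Under those scalings 7 to 10 members were called higher and 1 lower, while the share of lower calls among all called genes went from 69.7% to between 53.7% and 55.4%.

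**Figure D1:**
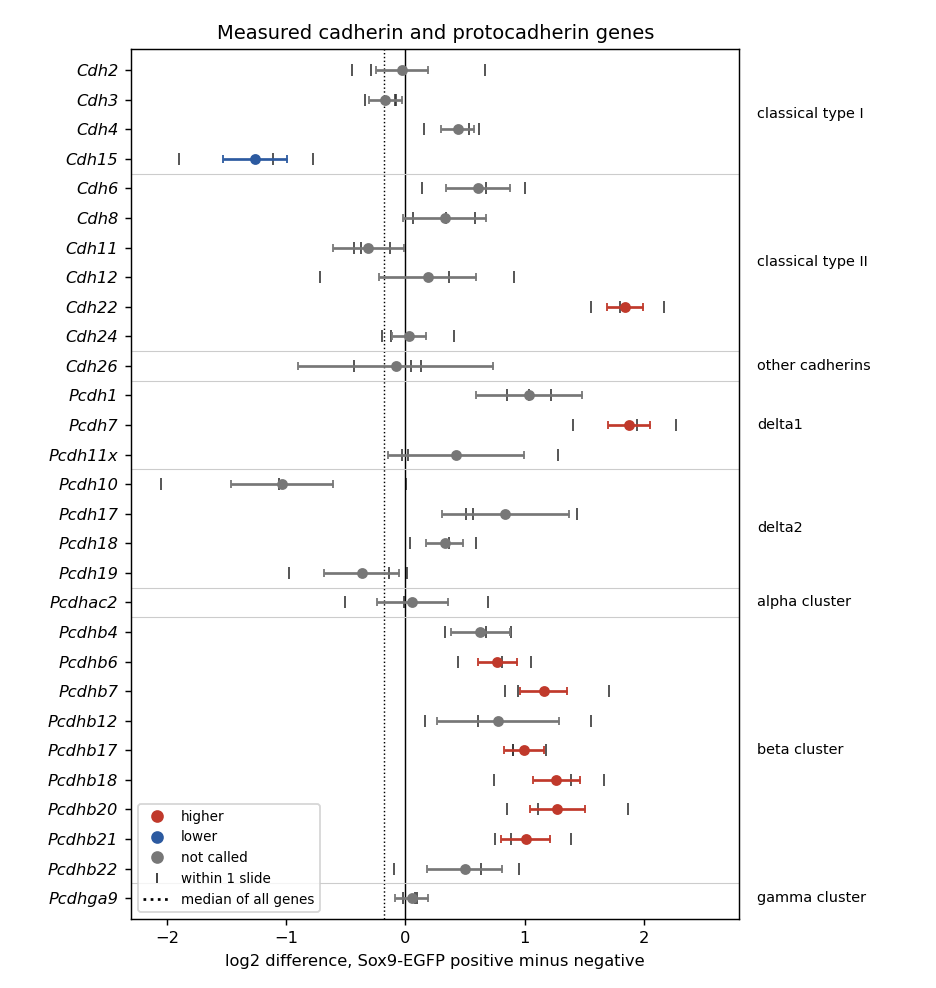
Log2 difference, positive minus negative, of the 29 measured genes by subgroup. Points and bars give the difference and its standard error from limma, short vertical marks the difference within each of the 3 slides, colours the call at an adjusted p of 0.05, and the dotted line the median of all genes at -0.18. Of the beta cluster, 9 of 9 measured genes lie above 0 and 6 are called, 3 under quantile-based scalings; Cdh2 and Cdh3 lie near 0 and change sign under quantile-based scalings.

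Among the 5 type I classical cadherins, 4 were measured. Cdh15 fell, Cdh2, Cdh3 and Cdh4 did not pass the test, and Cdh1 was not measured. Cdh15, or M-cadherin, is the cadherin of muscle precursors and satellite cells. It read -2.52, -2.06 and -1.73 on the positive arrays and -0.62, -0.62 and -1.29 on the negative arrays. Every positive array was below every negative array. The log2 difference was -1.26 ± 0.27 (SE, 3 against 3 arrays), a 2.40-fold lower signal, with an adjusted p of 0.0148, and it was -1.08 relative to the median gene. Within slides 1, 2 and 3 the difference was -1.90, -0.77 and -1.11, and a slide block gave an adjusted p of 0.0187. Leaving out negative replicate 1 ended the call (adjusted p 0.0579), as did testing without the background filter (0.0505) or with replicate number as a block (0.0574).

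Muscle precursor markers were found mainly on the negative arrays, where Cdh15 was higher. Of 7 markers 5 were measured, all 5 through the negative arrays. Lower signal was called for 4 of them, against 24.4% of all genes tested, a count that the filter favours. The summed signal was 0.128 to 0.216 times the 75th percentile on the positive arrays, part of which is background, against 0.623 to 1.51 on the negative arrays. Met, the measured marker that was not called, was above background on 2 positive arrays and differed by -0.97 (adjusted p 0.0519). The paired-box gene Pax3 was not well above background on any positive array and was at least 4.19-fold higher in the negative cells (adjusted p 0.00277). That bound sets the negative mean against, per positive array, the higher of the lowest signal well above background and the probe's own signal. Lbx1, needed for muscle precursors to migrate into the limb, read -4.66, -4.59 and -4.73 against -0.54, -0.61 and -2.01. It was above background on 1 positive array only, so no size is given for its difference. The myogenic factor genes Myod1 and Myog were not above background on any positive array either. Leaving out any of positive replicates 2 and 3 and negative replicates 1 and 2 ended their calls (adjusted p 0.0566 to 0.115). Negative replicate 3 was the lowest of the negative arrays for Cdh15 and for the 4 called markers. Pax7 and Myf5 were above background on no array. The part of these cells in the Cdh15 difference was not tested.

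The 250 bases upstream of the start site of Cdh15 (GRCm38.p6, chr8:122848124-122848373, plus strand, from RefSeq) are shown because Cdh15 was the only one of the 24 Cdh genes called lower. Capitals mark matches, on either strand, to the E-box CANNTG bound by myogenic bHLH factors, or to ACAAT and CTTTG, core sequences bound by SOX factors.
Cdh15: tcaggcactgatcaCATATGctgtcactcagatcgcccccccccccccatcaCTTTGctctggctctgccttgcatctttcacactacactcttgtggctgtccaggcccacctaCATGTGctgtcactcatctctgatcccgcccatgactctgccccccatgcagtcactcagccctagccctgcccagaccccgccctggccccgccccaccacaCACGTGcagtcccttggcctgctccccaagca
The window held 3 E-box matches, whose first bases lay at -236, -135 and -32 from the start site, and 1 CTTTG match at -198. It held no ACAAT. Of 32851 upstream windows of this length in the RefSeq table, 66.2% held CANNTG, 48.6% CTTTG and 27.7% ACAAT, so such matches are common, and they show letters and not binding.

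Cdh2, or N-cadherin, read 4.42, 3.99 and 3.82 on the positive arrays and 4.27, 3.76 and 4.27 on the negative arrays. The groups overlapped. Its difference was -0.03 ± 0.22 (adjusted p 0.937) and turned to 0.12 to 0.30 under the scalings by quantiles or the median. Within slides it was 0.66, -0.29 and -0.45, so the direction differed between slides. A second Cdh2 probe gave -0.24. These 3 against 3 arrays thus showed no difference in N-cadherin RNA larger than the spread between arrays.

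Cdh3, or P-cadherin, best known from the basal layer of epithelia, read 3.42, 3.19 and 3.15 against 3.22, 3.51 and 3.53. The difference was -0.17 ± 0.14 (adjusted p 0.392), close to the median gene, and turned to 0.12 to 0.14 under quantile-based scalings. Cdh4, or R-cadherin, read 0.50, 0.87 and 0.87 on the positive arrays and 0.33, 0.34 and 0.25 on the negative arrays. All 3 positive arrays were above all 3 negative arrays, by 0.44 ± 0.14, and the adjusted p of 0.0502 was just outside the threshold. Within slides Cdh4 differed by 0.16, 0.62 and 0.53, and another Cdh4 probe by 0.54. It passed in 9 of 18 alternatives, among them leaving out the dim array of positive replicate 1 (0.56, adjusted p 0.0112) and all 4 other scalings.

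Cdh1, or E-cadherin, the cadherin of epithelia, had 10 spots of 1 probe, and the probe was above background on no array. Of 8 epithelial markers 6 were measured, and 3 were called higher in the positive cells, against 10.6% of all genes tested. Called were the keratin genes Krt8 (1.22, adjusted p 0.00180) and Krt18 (2.59, adjusted p 0.000155) and the basal-layer factor gene Trp63 (1.01, adjusted p 0.0379). Trp63 missed the threshold without positive replicate 2 or any single negative replicate (adjusted p 0.0501 to 0.126). The summed signal of the 6 measured markers was 22.3 to 36.9 times the 75th percentile on the positive arrays and 9.24 to 11.6 on the negative arrays. Krt18 and Trp63, the brightest of them, made up most of it. The epithelial adhesion gene Epcam differed by -0.43, Krt14 by -0.03 and Esrp1 by 0.73, and none of them passed (adjusted p 0.167, 0.937 and 0.359). Krt5 and Grhl2 were not measured. The part of epithelial cells in the cadherin values was not tested.

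**Figure D2:**
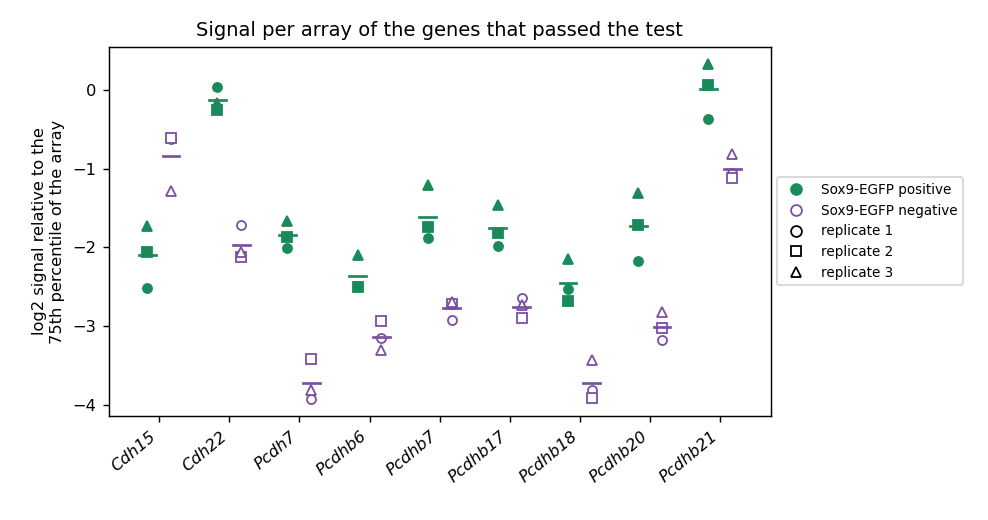
Log2 signal relative to the 75th percentile of each array for the 9 genes called at an adjusted p of 0.05. Filled symbols are positive and open symbols negative arrays, shapes give the replicate and horizontal lines the group means; the groups do not overlap for any of the 9, and Cdh15 is the only one lower in the positive cells. Pcdhb6, Pcdhb17 and Pcdhb20 are not called under quantile-based scalings.

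Type II cadherins are the second classical family, with 13 genes on the array. Cdh22 rose, the other 5 measured did not pass, and the median difference of the 6 was 0.26. Cdh22, first described in pituitary and brain, read 0.04, -0.26 and -0.17 on the positive arrays and -1.72, -2.13 and -2.06 on the negative arrays. All positive arrays were more than 1 log2 unit above all negative arrays. The difference was 1.84 ± 0.15, a 3.58-fold higher signal (adjusted p 0.000754), or 2.02 relative to the median gene. Within slides it was 2.16, 1.80 and 1.55, and a slide block gave an adjusted p of 0.00361. Cdh22 passed in all 18 alternatives tried, with differences between 1.23 and 1.99.

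The neural crest factor gene Sox10 read -1.64, -2.68 and -2.44 on the positive arrays and -4.19, -3.13 and -4.52 on the negative arrays, of which 1 was above background, and it was called higher (adjusted p 0.0253), a call that ended when positive replicate 3 (0.0632) was left out, and likewise for negative replicates 1 (0.0847) and 3 (0.0862). The part of neural crest cells in the higher signal of Cdh22, Pcdh7 and the beta cluster was not tested.

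The 250 bases upstream of Cdh22 (GRCm38.p6, chr2:165234738-165234987, minus strand, from RefSeq) are shown as the upstream region of the gene with the largest difference among the 24 Cdh genes.
Cdh22: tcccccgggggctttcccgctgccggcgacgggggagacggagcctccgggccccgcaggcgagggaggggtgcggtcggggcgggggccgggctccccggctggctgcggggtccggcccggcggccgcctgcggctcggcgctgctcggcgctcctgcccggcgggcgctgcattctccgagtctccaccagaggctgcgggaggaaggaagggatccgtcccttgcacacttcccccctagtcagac
This window held neither SOX core and no E-box on either strand, so it has no capitals, and G or C made up 77.6% of its bases, against 62.0% for the Cdh15 window. That says only that these letters are not within these 250 bases.

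Cdh6, or K-cadherin, known from the kidney and the neural crest, read -1.55, -0.88 and -0.49 on the positive arrays and -1.49, -1.69 and -1.56 on the negative arrays. Positive replicate 1 lay among the negative arrays and the other two lay above them. The difference was 0.61 ± 0.27 (adjusted p 0.126). Without positive replicate 1 it was 0.89 (adjusted p 0.00886), and within slides it was 0.14, 0.68 and 1.01. Among the type II members that did not pass, this was the largest difference.

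The Cdh6 probe lay on chr15:12963981-12964040 (mm9, minus strand) and the Cdh9 probe on chr15:16785915-16785974 (mm9, plus strand). They were the most alike of all 3973 probe pairs of different members, sharing 50 of 60 bases, and are shown because cross-hybridisation between such probes would blur the 2 genes. Capitals mark the bases that differ.
Cdh6: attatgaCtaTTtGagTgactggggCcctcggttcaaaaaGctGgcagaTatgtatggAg
Cdh9: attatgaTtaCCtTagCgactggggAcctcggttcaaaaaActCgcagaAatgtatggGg
Of the 10 differing bases, 9 fell in the same codon position, and the Cdh6 probe had 1 reading frame without a stop. The Cdh9 probe was above background on no array although the Cdh6 probe was above it on all 6, so a signal at the Cdh6 probe was not accompanied by one at the Cdh9 probe. The Cdh10 probe shared 41 bases with the Cdh9 probe at an offset of 10 bases and 35 with the Cdh6 probe, and it was above background on 2 positive arrays and 1 negative array. All other pairs of members shared at most 30 bases.

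Cdh11, a cadherin of mesenchyme and bone-forming cells, read 2.17, 1.30 and 1.29 on the positive arrays and 1.66, 2.31 and 1.73 on the negative arrays. The groups overlapped and the difference was -0.31 ± 0.30 (adjusted p 0.460). Both slide 1 arrays, positive replicate 1 and negative replicate 2, were the high ones, and within slides Cdh11 differed by -0.13, -0.43 and -0.37. A second Cdh11 probe differed by -0.02. Cdh8, Cdh12 and Cdh24 differed by 0.33, 0.19 and 0.03, with adjusted p-values of 0.50, 0.757 and 0.895. The direction of Cdh12 and Cdh24 changed between slides and under quantile-based scalings.

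Only Cdh26 was measured among the 6 other cadherins. It read -0.70, -2.68 and -2.48 on the positive arrays and -2.62, -0.27 and -2.73 on the negative arrays. The 2 high arrays, positive replicate 1 and negative replicate 2, shared slide 1, and the difference was -0.08 ± 0.82 (adjusted p 0.945). The array named 1 further gene Cdh29, whose current symbol is Cdhr4 and for which a brighter probe under that name stood for the gene. The Cdh29 probe read -2.81, -3.19 and -3.13 against -4.56, -4.33 and -4.48, and was above background on 2 arrays of each group. The brighter Cdhr4 probe was called higher, by 0.98 ± 0.25 (adjusted p 0.0262), but missed the threshold under quantile-based scalings and without any single array other than positive replicate 1 (adjusted p 0.0556 to 0.0937).

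Of the 12 non-clustered protocadherins, 9 belong to the delta family and 7 of these were measured. Pcdh7 rose, 6 did not pass, and the median difference of the 7 was 0.43. Pcdh7, the delta1 member also called NF-protocadherin, read -2.01, -1.86 and -1.66 on the positive arrays and -3.93, -3.41 and -3.81 on the negative arrays. Every positive array was above every negative array by more than 1 log2 unit. The difference was 1.87 ± 0.17, a 3.66-fold higher signal (adjusted p 0.00106), or 2.05 relative to the median gene. Within slides it was 1.40, 1.95 and 2.27, and a slide block gave an adjusted p of 0.00530. Pcdh7 passed in all 18 alternatives, but its size fell to 0.76 in the authors' deposited log2 table, the lowest of the other scalings.

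Pcdh7 had 3 probes on chromosome 5 (mm9, plus strand), which report different ends of its transcripts. The first 30 of 60 bases of each are shown because the probes agreed in direction and differed in size.
Pcdh7 first probe, chr5:58120201-58120260: aagttccattgcatgagaccttttagttgt
Pcdh7 second probe, chr5:58520529-58520588: aaacaggagaatataagccatctcctgtca
Pcdh7 last probe, chr5:58523420-58523479: taatatggggctgcttaaatatcactggac
The first probe, designed on one transcript, stood for the gene above. The other two were designed on another transcript, and each was above background on 2 positive arrays and on no negative array. The second probe read -2.91, -4.14 and -3.55 against -6.31, -6.88 and -6.84. The last probe read -2.98, -2.59 and -2.15 against -4.39, -5.92 and -4.98. On all 3 probes each positive array was above each negative array, but positive replicate 1 was not above background on these other two, and no fold is given for them.

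The 250 bases upstream of Pcdh7 (GRCm38.p6, chr5:57717831-57718080, plus strand, from RefSeq) follow, as the upstream region of the largest difference among all members. Capitals mark matches to the same motifs.
Pcdh7: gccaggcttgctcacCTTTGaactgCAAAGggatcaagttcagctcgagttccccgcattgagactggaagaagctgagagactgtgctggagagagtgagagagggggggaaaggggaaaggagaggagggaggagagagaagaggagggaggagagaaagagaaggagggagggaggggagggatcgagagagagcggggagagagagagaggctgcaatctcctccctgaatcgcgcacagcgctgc
There were 2 matches to CTTTG, whose first bases lay at -235 and -225 from the start site, on opposite strands, and none to ACAAT or CANNTG. As given above, 48.6% of all windows held CTTTG. The RefSeq promoter table held 23 of the 71 members.

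Pcdh1, another delta1 gene, read -0.23, -1.42 and -1.27 on the positive arrays and -2.12, -1.26 and -2.64 on the negative arrays. The groups overlapped, since negative replicate 2 was as high as positive replicates 2 and 3. Both slide 1 arrays were the highest of their group, and within slides the difference was 1.04, 1.22 and 0.85. It was 1.04 ± 0.45 with an adjusted p of 0.119, and a slide block gave an adjusted p of 0.00661. Pcdh17, a delta2 gene, read -1.28, -3.25 and -2.18 against -2.75, -2.72 and -3.76, and differed by 0.84 ± 0.54 (adjusted p 0.270). A slide block lowered its adjusted p to 0.0411, and the slides gave 1.44, 0.51 and 0.56. Over all genes the slide block called 12.5% higher. For both genes the highest array was the dim one of positive replicate 1.

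Pcdh10, a delta2 gene whose tail recruits the WAVE actin regulator, read -3.29, -3.28 and -1.99 on the positive arrays and -2.00, -1.24 and -2.22 on the negative arrays. Positive replicate 3 lay among the negative arrays and the other two lay below them. Its difference of -1.04 ± 0.43 was the largest among delta2 genes that did not pass (adjusted p 0.107). Without positive replicate 3 it was -1.47 (adjusted p 0.0311). Positive replicate 1 was not above background, so both of these differences and that within slide 1 rest in part on a background reading. Within slides Pcdh10 differed by -2.05, -1.06 and 0.00, and a second Pcdh10 probe differed by -0.21.

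Pcdh18 read 4.29, 3.76 and 4.08 on the positive arrays and 3.72, 3.70 and 3.72 on the negative arrays. Each positive array was above each negative array, but by 0.33 ± 0.15 only (adjusted p 0.145). It passed under the 3 quantile-based scalings, with differences of 0.61 to 0.64 (adjusted p 0.0205 to 0.0343). Pcdh19, which lies on the X chromosome, differed by -0.37 and Pcdh11x by 0.43, with adjusted p-values of 0.402 and 0.602; Pcdh11x turned to -0.22 without negative replicate 3. Over the 4 measured delta2 genes 2 differences were above 0 and 2 below.

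**Figure D3:**
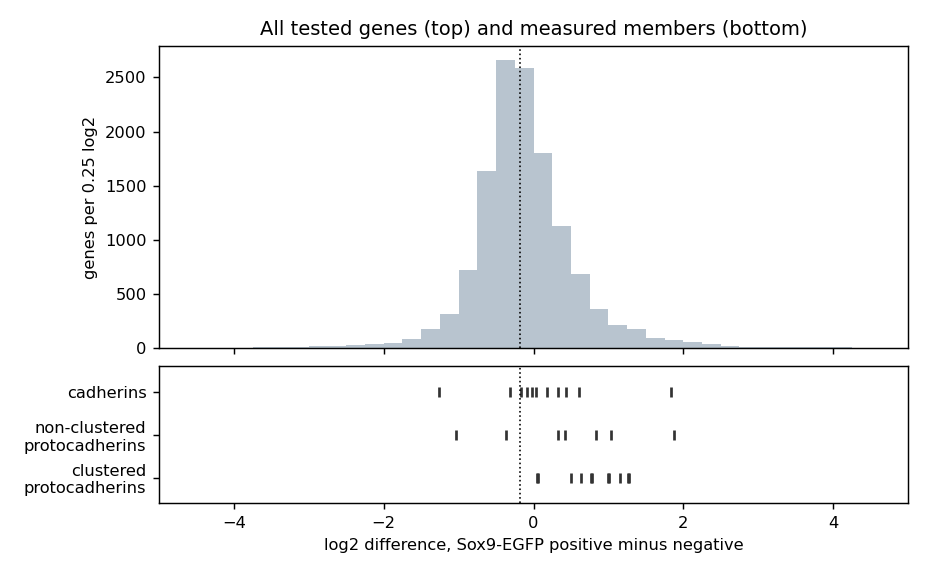
Top, number of tested genes per 0.25 log2 units of difference, positive minus negative, with 23 genes beyond 5 units not drawn. Bottom, each measured member as a tick by family. The clustered protocadherins all lie right of the dotted median of all genes at -0.18, between 0.05 and 1.27, while cadherins and non-clustered protocadherins lie on both sides; alpha member Pcdhac2 falls below 0 under quantile-based scalings.

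The beta cluster gave the most calls. It holds 22 genes on chromosome 18, each with a single large exon and a transcript end of its own, and all 22 were on the array with 1 probe each. Their 231 probe pairs shared at most 29 of 60 bases (median 21), so no pair was near-identical. Whether a probe also matches the transcript of another beta gene was not tested. Of the 22, 9 were measured. All 9 differences were above 0, 6 genes rose, and the median was 1.0 against 0.44 for all measured members and -0.18 for all genes.

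The 6 genes that rose were Pcdhb6, Pcdhb7, Pcdhb17, Pcdhb18, Pcdhb20 and Pcdhb21. Pcdhb18 read -2.53, -2.68 and -2.14 on the positive arrays and -3.81, -3.91 and -3.43 on the negative arrays, a difference of 1.26 ± 0.20 (adjusted p 0.00520). Pcdhb20 read -2.17, -1.71 and -1.31 against -3.18, -3.02 and -2.82, and differed by 1.27 ± 0.23 (adjusted p 0.00877). Pcdhb7 read -1.88, -1.74 and -1.21 against -2.92, -2.72 and -2.69, and differed by 1.16 ± 0.20 (adjusted p 0.00691). For each of these 3 genes the lowest positive array was above the highest negative array.

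Pcdhb17 read -1.99, -1.82 and -1.46 on the positive arrays and -2.64, -2.89 and -2.73 on the negative arrays, a difference of 1.0 ± 0.17 (adjusted p 0.00659). Pcdhb21 read -0.38, 0.07 and 0.33 against -1.06, -1.13 and -0.82, and differed by 1.01 ± 0.20 (adjusted p 0.0121). Pcdhb6 read -2.49, -2.50 and -2.10 against -3.16, -2.94 and -3.31, the smallest of the 6 differences at 0.77 ± 0.16 (adjusted p 0.0146). Again no positive array of these 3 genes reached down to a negative one, and the fold over all 6 genes was 1.70 to 2.42.

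Within slides 1, 2 and 3, Pcdhb18 differed by 1.39, 0.74 and 1.66 and Pcdhb20 by 0.85, 1.11 and 1.87. Pcdhb7 differed by 0.83, 0.94 and 1.71, and Pcdhb17 by 0.90, 0.90 and 1.18. Pcdhb21 differed by 0.75, 0.88 and 1.39, and Pcdhb6 by 0.44, 0.81 and 1.05. Every slide value of the 6 genes was above 0, and the largest was on slide 3 for each gene.

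Pcdhb4, Pcdhb12 and Pcdhb22 did not pass, with differences of 0.63, 0.78 and 0.50 and adjusted p-values of 0.0937, 0.282 and 0.263. Pcdhb12 had the largest of these differences, and its slide values of 1.56, 0.17 and 0.61 put most of it on slide 1. Pcdhb4 gave 0.67, 0.33 and 0.88 and Pcdhb22 -0.09, 0.63 and 0.96, so 8 of the 9 genes were above 0 on slide 1 and all 9 on slides 2 and 3. For Pcdhb4 and Pcdhb22 positive replicate 1 was not above background, so their slide 1 values rest in part on a background reading. Pcdhb4 passed with slide as a block (adjusted p 0.0288), and the 6 calls were kept with it. The median of the 9 genes within slides was 0.83, 0.81 and 1.18, where probes above background on no array had medians of 1.90, 0.00 and -0.23. Without the dim array of positive replicate 1 the median was 1.11 and 8 of the 9 were called higher, Pcdhb4 (adjusted p 0.0403) and Pcdhb22 (0.00701) among them.

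Calls in the beta cluster depended on the scaling. Under normexp with quantiles, under quantiles alone and in the authors' deposited log2 values, all 9 differences stayed above 0, their medians were 0.37, 0.76 and 0.36, and 3 genes were called. Pcdhb7, Pcdhb18 and Pcdhb21 kept their calls there, and Pcdhb6, Pcdhb17 and Pcdhb20 did not (adjusted p from 0.0571 to 0.154). These scalings called 12.3%, 11.4% and 11.7% of all genes higher. Without negative replicate 1 the calls of Pcdhb6 (adjusted p 0.0576) and Pcdhb21 (0.0501) were lost. Pcdhb6 also missed the threshold without negative replicate 3 (0.0587) and with replicate number as a block (0.0667).

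**Figure D4:**
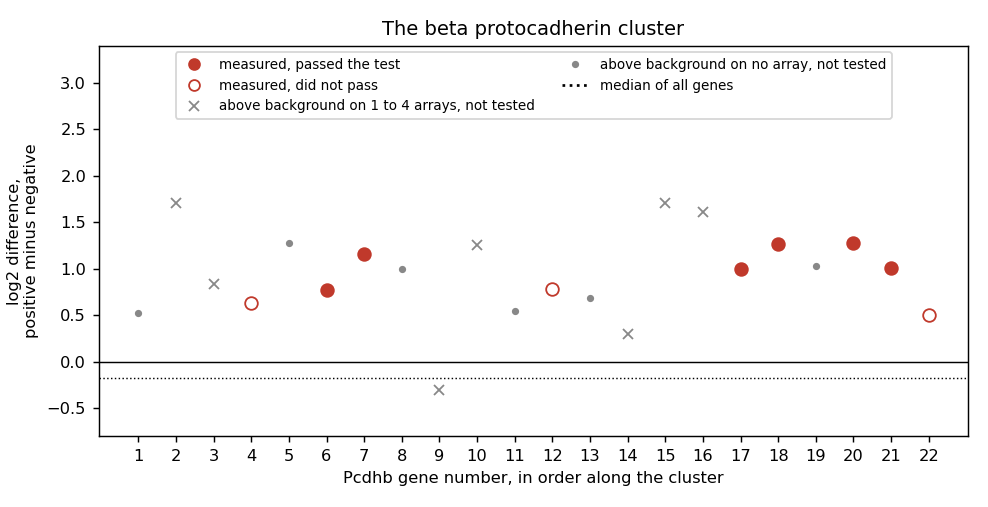
Log2 difference, positive minus negative, of the 22 genes of the beta protocadherin cluster in order of their number. Filled circles passed an adjusted p of 0.05, open circles were measured and did not pass, and grey marks were not measured; all 9 measured genes lie above 0, from 0.50 to 1.27, and Pcdhb6, Pcdhb17 and Pcdhb20 are not called under quantile-based scalings.

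The 13 other beta genes were not measured, so their differences carry no test. Of these, 7 were above background on at least 1 array and 6 on none. Pcdhb16 was above background on 2 positive arrays and no negative array. It read -3.08, -3.54 and -2.71 against -4.60, -4.76 and -4.81. Pcdhb15 read -4.45, -4.63 and -3.86 against -5.60, -6.73 and -5.72, and was above background on 1 positive array only. Pcdhb14 was above background on 2 arrays of each group and differed by 0.30. The lowest of the 22 differences was that of Pcdhb9, at -0.30, which was above background on negative replicate 3 alone.

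In the alpha and gamma clusters 1 gene each was measured, Pcdhac2 and Pcdhga9, and neither passed. Each gene of these clusters has its own first exon, which is spliced to exons shared by the whole cluster. In RefSeq, 13 of 14 alpha genes and 21 of 21 gamma genes end within 30 bases of one another, whereas the 22 beta genes end apart. Both Pcdhga9 probes (mm9, chr18:37999725-37999784 and chr18:38001378-38001437, plus strand) lay beyond the Pcdhgc5 probe at chr18:37979245-37979304, in the shared part, so their signal cannot be given to 1 gamma gene. The brighter one read 5.10, 5.28 and 5.36 on the positive arrays and 5.38, 5.01 and 5.20 on the negative arrays. The groups overlapped, with a difference of 0.05 ± 0.14 (adjusted p 0.804), and the other probe differed by 0.46.

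Probes on first exons of the gamma cluster gave another picture of detection. Pcdhga1 was above background on 1 array of each group, Pcdhga5 and Pcdhga10 on 1 positive array, and Pcdhgb1 and Pcdhgc5 on none. The Pcdhac2 probe that passed (mm9, chr18:37347235-37347294, plus strand) likewise lay beyond the other Pcdhac2 probe at chr18:37305687-37305745, which was above background on no array. It read -3.86, -3.55 and -2.69 against -3.38, -3.35 and -3.53, a difference of 0.06 ± 0.30 (adjusted p 0.898) that turned negative under quantile-based scalings. Of the other 6 alpha genes, Pcdha8 was above background on 2 arrays of each group, Pcdha12 on 1 positive array, and Pcdha4, Pcdha9, Pcdha11 and Pcdhac1 on none.

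The remaining members were not measured. Among cadherins, Cdh1, Cdh9, Cdh17, Cdh18, Cdh19 and Cdh23 were above background on no array; Cdh17 is an intestinal cadherin and Cdh23 part of the tip link of hair cells. Cdh20 was above background on 2 arrays of each group and Cdh13, the cadherin without a cytoplasmic tail, on 1 of each. Cdh16, a kidney cadherin, was above background on 1 positive array, and Cdh5 and Cdh7 on 1 negative array each. Among delta protocadherins Pcdh8 was above background on 2 arrays of each group and Pcdh9 on 1 positive array. Of the other 3 non-clustered genes, Pcdh15, with 6 probes, reached it at most on 1 array of each group for a probe, Pcdh12 on 1 negative array and Pcdh20 on none.

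Genes that work with cadherins were taken as 8 lists with 71 members, of which 57 were measured. In them 6 rose, 14 fell and 37 did not pass, with a median of -0.26, against 10.6% higher, 24.4% lower and a median of -0.18 over all genes. With slide as a block 24 partners passed, those 20 and Pkp4 (-0.47, adjusted p 0.0368), Actn1 (-0.48, 0.0333) and Celsr1 (-0.64, 0.0474), lower, and Vcl (0.43, 0.0414), higher. Of 8 measured catenin genes, which link cadherins to actin, 1 rose and none fell without that block. This was Ctnna2, the alpha-catenin of neural tissue, with a difference of 1.02 ± 0.24 (adjusted p 0.0211), which missed the threshold under quantile-based scalings and without any single negative replicate (adjusted p up to 0.0793). Ctnnb1, Ctnna1 and Ctnnd1, which encode beta-catenin, alpha-E-catenin and p120-catenin, differed by -0.07, -0.23 and -0.08 and did not pass, and the differences of all 3 turned above 0 under quantile-based scalings (0.04 to 0.29). Among 8 actin linkers Ajuba rose (0.63, adjusted p 0.0306) and Lima1 and Zyx fell (-0.53 and -0.41, adjusted p 0.0145 and 0.0337), but Zyx was near 0 under quantile-based scalings, at -0.07 to -0.08. None of 4 sheddase genes passed.

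Nectins are adhesion proteins of the same junctions, and Nectin2 rose by 0.71 ± 0.11 (adjusted p 0.00486) while the other 2 measured nectin genes did not pass. In the desmosome, whose adhesion proteins are cadherins too, 3 of 9 genes were measured. Of these, 2 were called lower, Dsc2 and Pkp2, against 24.4% of all genes tested. Both passed the filter only through the negative arrays, so the filter favours that count. Pkp3, above background on all 6 arrays, differed by 0.22 and did not pass (adjusted p 0.841). The desmocollin gene Dsc2 read -4.82, -5.01 and -4.01 on the positive arrays and -1.57, -1.58 and -1.27 on the negative arrays, and was called lower (adjusted p 0.000846). It was above background on 1 positive array only, so no size is given for its difference. The plakophilin gene Pkp2 read -4.82, -3.99 and -3.65 on the positive arrays and -2.60, -2.51 and -2.23 on the negative arrays (adjusted p 0.00829). Positive replicate 1 was not above background, so the difference of -1.70 rests in part on a background reading. Among 14 measured large cadherins and cadherin-related genes 3 rose and 3 fell, against 10.6% higher and 24.4% lower over all genes tested. Fat3, an atypical cadherin, read -0.70, -1.58 and -1.09 against -3.73, -3.14 and -3.57, a difference of 2.36 ± 0.26 (adjusted p 0.00190). Its relative Fat4 rose by 1.29 (adjusted p 0.0123; without negative replicate 1, 0.0503), whereas Fat1 differed by -0.82 (adjusted p 0.00508), so the Fat genes did not move one way.

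In the same list Fjx1, a mouse relative of the fly gene four-jointed of the Fat pathway, fell by 1.43 (adjusted p 0.00174), and the calsyntenin gene Clstn2 fell by 1.39 (adjusted p 0.00659). Of 9 genes for the WAVE complex, which delta protocadherins bind, 3 fell, against 24.4% of all genes tested. Cyfip2 fell by 0.87, Abi2 by 0.65 and Wasf1 by 0.57 (adjusted p 0.00264, 0.0112 and 0.0175). Of 8 measured partners and regulators of clustered protocadherins, 4 fell and none rose, against 24.4% lower and 10.6% higher over all genes tested. Ctcf, whose product binds the cluster promoters and enhancers, differed by -0.52, the cohesin gene Smc3 by -0.55, the silencing factor gene Smchd1 by -0.47 and the DNA methyltransferase gene Dnmt3b by -0.62 (adjusted p 0.0112, 0.0215, 0.0459 and 0.0120). All 4 missed the threshold under quantile-based scalings, where their differences lay between -0.32 and -0.11, and Wasf1 did so as well. Without negative replicate 1 the calls of Ajuba, Lima1, Zyx, Ctcf, Smc3, Smchd1 and Wasf1 were lost (adjusted p 0.0534 to 0.130). Without positive replicate 2 or 3 or negative replicate 3, Ajuba, Zyx, Smc3, Smchd1 and Wasf1 missed the threshold too (0.0525 to 0.133), as did Lima1 without positive replicate 3 (0.0519), Ajuba without negative replicate 2 (0.0829) and Smchd1 without positive replicate 1 (0.0625).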

How the data were processed

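Total RNA of 6 sorted samples was measured on 1-colour Agilent arrays with 62976 spots each. Per the file headers, the authors obtained spot intensity values with Feature Extraction 10.7.3.1, which corrects background within an array. The authors' deposited table holds log2 values with the same median of 6.41 in every array. The labels' protocols give 100 ng and 75 ng of RNA. The labels do not say whether samples came from separate litters, so p-values measure only the spread between these samples.

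Processed intensities were taken as log2 minus each array's 75th percentile over 59305 non-control spots; outlier spots were left out and replicate spots averaged. A probe passed if it was well above background in every sample of one group or of both. Names came from a RefSeq table, and the brightest passing probe stood for each of 13196 genes. Groups were compared with limma 3.58.1 (R 4.3.3, linear model with empirical Bayes moderation, Benjamini-Hochberg adjustment over all genes, threshold 0.05). An exact permutation test of 3 against 3 arrays cannot go below 0.1. The steps were tested on simulated data. Members and gene lists were chosen with earlier results of these data known. Every member past the threshold and Cdh1, Cdh2, Cdh3, Cdh4 and Cdh11 are given with values; other genes named singly were chosen after their values were seen, apart from the smallest adjusted p-values of each partner list and the brightest cell type markers. Probe coordinates are mm9, per the file headers. Deviations from the group means correlated at -0.274, -0.418 and 0.157 between arrays of the same replicate number, and at 0.463, 0.358 and 0.229 between arrays of one slide. The labels do not say whether replicate numbers pair the samples. These correlations cannot decide it, because slide differences enter them too. Alternatives were other scalings, filters, probe rules, moderation, array weights, slide and replicate blocks, thresholds and leaving out each array.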

Additional observations from a re-analysis of the deposited data

How the results depend on the processing

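The main counts were 8 members higher and 1 lower, 2 cadherins, 1 non-clustered and 6 clustered protocadherins, 20 junction partners and 4617 genes in all. With normexp and quantiles, with quantiles alone and in the authors' deposited log2 values, non-clustered calls were 2 and clustered calls 3. Without the background filter, 0 members were lower, 1 cadherin, 11 partners and 2656 genes were called. With array weights, 13 members were higher, 2 lower, 4 cadherins and 3 non-clustered protocadherins called. The slide block gave 3 non-clustered calls. The replicate block gave 0 lower members, 1 cadherin, 9 partners and 2157 genes, and Cdh15 (adjusted p 0.0574) and Pcdhb6 (0.0667) missed the threshold. The labels do not say whether the replicate numbers pair the samples. At a threshold of 0.01, 0 members were lower, 1 cadherin, 8 partners and 2109 genes were called; beyond 2-fold, 7 partners and 1454 genes. Leaving out single replicates gave 6 to 12 members higher, 0 to 2 lower, 1 to 4 cadherins, 1 to 2 non-clustered and 4 to 8 clustered protocadherins, 10 to 25 partners and 2485 to 5176 genes; the lowest all-gene count came without negative replicate 3. Why counts moved was not tested.

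The sign turned only for differences without a call, most of them small. The largest was that of Pcdh11x, at 0.43 ± 0.57 in the main fit. Cdh2 was 0.296 with normexp and quantiles, 0.287 with quantiles, 0.125 with median centring and 0.277 in the deposited values, and ranged from -0.199 to 0.104 when single replicates were left out. Cdh3 was 0.142, 0.134 and 0.123 with normexp and quantiles, quantiles and the deposited values. Cdh26 was 0.0679 with median centring and -0.711 to 0.719 without single replicates. Cdh12 was -0.0726, -0.0915 and -0.0733 and Cdh24 -0.104, -0.220 and -0.0967 under these 3, and without single replicates Cdh12 ranged from -0.112 to 0.592, Cdh24 from -0.0789 to 0.0961 and Pcdh11x from -0.217 to 0.867. Pcdhac2 was -0.0477, -0.251 and -0.0533 with the 3 quantile-based scalings and -0.283 to 0.305 without single replicates. Pcdhga9 was -0.0119 with array weights and -0.0425 to 0.145 without single replicates. Of the partners, with normexp and quantiles, quantiles and the deposited values, Ctnnb1 was 0.290, 0.287 and 0.282, Ctnna1 0.0903, 0.0930 and 0.0400 and Ctnnd1 0.233, 0.217 and 0.210; with median centring Ctnnb1 was 0.0848 and Ctnnd1 0.0684. Over all alternatives, the 29 measured members kept direction and call in 442 cases, gained a call in 25, lost it in 17 and turned sign in 33. With 3 arrays a group and 1 dim array, genes near background are the least certain.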

Other observations

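Some members without a call stood out on single arrays. Negative replicate 2 carried blood markers with a summed signal of 48.2 times the 75th percentile, against 2.02 and 4.56 on the other negative arrays and 1.41 to 5.70 on the positive arrays. It was also the only array with Cdh5, the cadherin of endothelial cells, above background, at -3.43 against -6.79 to -4.73 elsewhere. Pcdh12, an endothelial protocadherin, was likewise above background only there, at -2.72 against -6.84 to -4.87. Of 7 endothelial markers 2 were measured, Kdr and Pecam1, and Tek, Tie1 and Emcn were above background on no array. The summed signal of the 2, nearly all of it from Kdr, was 4.69 on negative replicate 2, inside the range of the others. Kdr read 2.19 there, against 0.83 to 2.96 elsewhere. Pecam1 read -2.845 there, its highest, against -3.73 to -3.10 elsewhere. Cdh26 followed the slide rather than the sort: both slide 1 arrays read -0.70 and -0.27 and the other 4 read -2.73 to -2.48. No explanation of these values was tested.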
